A study of Mus musculus with 12 samples.

Results

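The subject is 10 genes that encode subunits of Polycomb repressive complex 1 (PRC1), a multi-protein complex that silences developmental genes in embryonic stem cells. They are the catalytic RING proteins (Rnf2, Ring1), PCGF partners of the RING proteins (Pcgf1, Pcgf6, Bmi1), subunits of canonical PRC1 (Cbx7, Phc1) and subunits of variant PRC1 (Kdm2b, Rybp, L3mbtl2). The genes were listed by name and found in the count table through their Ensembl identifiers, and all 10 of 10 were present among 43346 gene IDs and passed the filter on low counts with 17148 genes in all. RNA was sequenced from mouse embryonic stem cells in 12 libraries, 3 from each of 4 groups. B6 is the inbred strain C57BL/6J and D2 the inbred strain DBA/2J. B6-13D2, labelled B6.D2-(rs30079041-rs51756099)/Bakr, has a D2 segment of chromosome 13 on the B6 background, and D2-13B6, labelled D2.B6-(rs29224292-rs13469455)/Bakr, is the reciprocal line with a B6 segment on the D2 background. All 4 groups grew in serum medium with LIF, the MEK inhibitor PD0325901 at 1 µM and the GSK3 inhibitor CHIR99021 at 3 µM.

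Several features of the labels limit these groups as models of a strain or a segment. The protocol describes separate cultures of a single line for each strain, so a line and its strain cannot be told apart, and p-values measure the spread between cultures of a line. The titles call the samples technical replicates, name another line for B6 replicate 3 than for B6 replicates 1 and 2, and name another D2 line than the cell line field does. The molecule field gives genomic DNA, while the extraction protocol describes RNA isolation and mRNA libraries. For the D2-13B6 segment the series description gives another far end, rs51756099, than the sample labels. Columns of both congenic lines carry a prefix that the parental columns lack, and anything the prefix records cannot be told apart from the congenic against parental difference. None of the 10 genes lies on chromosome 13 (0 of 10). Positions below are those of GENCODE M21 on GRCm38 (mm10), and each of the 10 is annotated as protein coding.

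PRC1 is an E3 ubiquitin ligase whose RING subunit places a single ubiquitin on histone H2A. Every PRC1 holds a RING protein and a PCGF protein, and the PCGF decides which other subunits can join. Canonical PRC1 is built on PCGF2 or BMI1 and has a CBX protein, which binds the histone H3 methylation left by PRC2, and a PHC protein, which can polymerise and compact chromatin. Variant PRC1 has RYBP or its paralogue YAF2 in place of CBX. In the PCGF1 form KDM2B brings the complex to unmethylated CpG islands, and in the PCGF6 form L3MBTL2, MGA and MAX are partners that keep germline genes silent in stem cells.

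Because KDM2B reads CpG dinucleotides through a zinc finger of the CXXC type, the CpG content of 3 members' own promoters is shown, for the member with the widest range between groups (Bmi1), a variant subunit that tracked the stem cell markers (Pcgf6) and the gene of KDM2B. RefSeq promoter windows of GRCm38.p6 matched 8 of 10 members in 11 entries, and each sequence is the 250 bases before an annotated start, 5′ to 3′ on the gene's strand, with CpG dinucleotides in capitals. The windows are chr2:18676768-18677017 on the plus strand for Bmi1, chr19:47050907-47051156 on the minus strand for Pcgf6 and chr5:122900368-122900617 on the minus strand for an internal start of Kdm2b. None of the 3 windows overlaps an annotated exon.
Bmi1: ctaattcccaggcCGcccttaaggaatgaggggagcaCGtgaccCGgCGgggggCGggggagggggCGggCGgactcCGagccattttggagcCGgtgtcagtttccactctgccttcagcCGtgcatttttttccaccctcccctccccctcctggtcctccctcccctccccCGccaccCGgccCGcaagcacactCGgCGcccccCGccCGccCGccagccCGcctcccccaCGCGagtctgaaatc
Pcgf6: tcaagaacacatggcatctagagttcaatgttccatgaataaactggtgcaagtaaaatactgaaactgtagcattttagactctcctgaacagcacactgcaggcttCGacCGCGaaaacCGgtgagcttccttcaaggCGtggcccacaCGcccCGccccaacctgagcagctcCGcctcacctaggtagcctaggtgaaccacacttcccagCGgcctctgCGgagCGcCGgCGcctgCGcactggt
Kdm2b: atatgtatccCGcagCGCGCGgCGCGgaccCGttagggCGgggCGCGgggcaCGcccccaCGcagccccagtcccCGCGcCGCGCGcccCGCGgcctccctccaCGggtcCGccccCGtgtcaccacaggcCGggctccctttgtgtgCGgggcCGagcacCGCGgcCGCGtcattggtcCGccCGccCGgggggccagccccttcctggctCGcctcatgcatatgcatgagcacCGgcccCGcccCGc
The Bmi1 window held 21 CpG dinucleotides, more than 83.7% of 32851 mouse promoter windows of the same length. The Pcgf6 window held 14, more than 70.6% of them, and the Kdm2b window held 36, more than 97.4%. It was chosen among 4 Kdm2b windows as the 1 that overlaps no annotated exon, and the other windows held 12, 27 and 38. At least 1 CG was present in 92.1% of all windows. Among the motifs searched on both strands, the palindromic E-box CACGTG was found in 1 of 8 matched members, Bmi1, and in 6.02% of all windows. CCAAT was found in 2 of 8 members, Cbx7 and Kdm2b, and in 33.8% of all windows. TTCCCGC and CCGGAAG were found in 0 of 8 members and in 3.82% and 6.91% of all windows. These matches describe letters in a window and say nothing of binding.

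Library totals were 22184196 to 36411799 expected counts, and libraries of the same group correlated at r of 0.9878 to 0.9939 across genes without being duplicates of each other. Levels below are in CPM (counts scaled to a common library total) with TMM factors, a call is an edgeR adjusted p under 0.05 over all 17148 genes, and errors are SDs over 3 libraries. The embryonic stem cell label was checked against 8 markers (Pou5f1, Sox2, Nanog, Zfp42, Esrrb, Klf4, Utf1, Dppa5a), each above 1 CPM on average in every group. Their summed level was 3880 to 4230 CPM in B6, 4420 to 4720 in B6-13D2, 2910 to 2990 in D2 and 3520 to 3580 in D2-13B6. The 8 fibroblast markers (Col1a1, Col1a2, Col3a1, Thy1, Postn, Lum, Dcn, Twist2) summed to 9360 to 10200 CPM in B6, 3080 to 3170 in B6-13D2, 14100 to 16900 in D2 and 7710 to 8040 in D2-13B6, with 0 of 8 at zero in all libraries of any group. The culture protocol names no feeder cells. In bulk RNA, fewer cells of a type and less RNA per cell cannot be told apart. The lowest and highest groups of the stem cell sum (D2 and B6-13D2) were the highest and lowest of the fibroblast sum, while B6 lay above D2-13B6 in both.

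**Figure D1:**
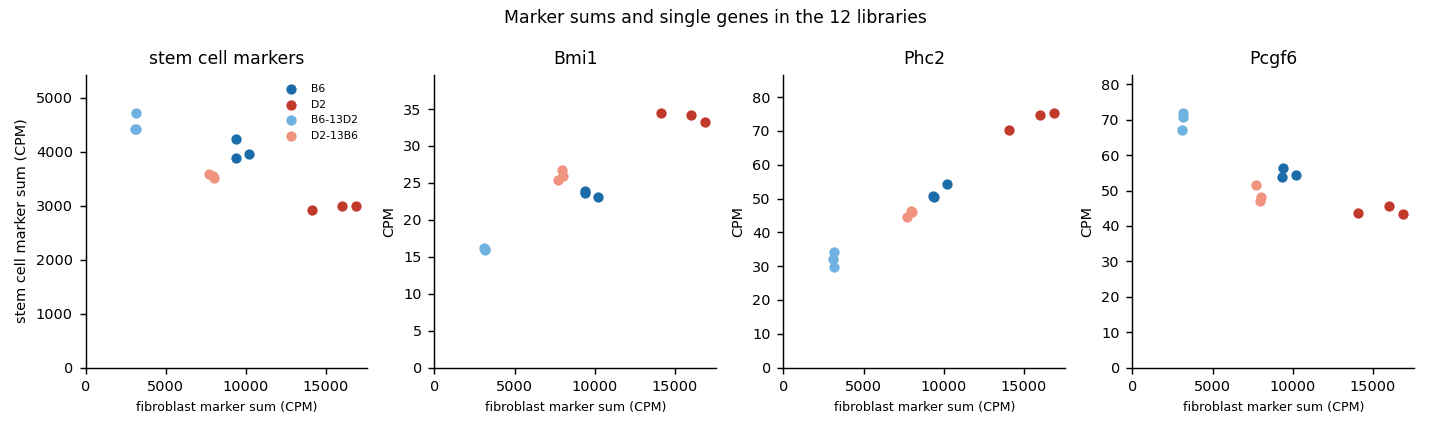
Summed CPM of the stem cell markers and CPM of Bmi1, Phc2 and Pcgf6, a panel each, against the summed CPM of the fibroblast markers. Points are libraries, coloured by the 4 groups. Fibroblast markers were lowest in B6-13D2 (3080 to 3170 CPM) and highest in D2 (14100 to 16900 CPM), and stem cell markers were highest in B6-13D2 (4420 to 4720 CPM) and lowest in D2 (2910 to 2990 CPM).

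Since those marker sums moved with the groups, each member was also scaled to the stem cell markers, an alternative added after seeing the data. It raised the median log2 fold change of all genes by 0.44 in D2 against B6 and shifted it by -0.167 in B6-13D2 against B6, by -0.258 in D2-13B6 against D2 and by -0.427 in both congenic lines minus both parental strains. The share of called genes that were higher went from 49.6% to 89.3%, from 43.5% to 22.9%, from 48.2% to 18.6% and from 48.2% to 18.5% in those 4 comparisons. Member directions below are on the TMM scale, with the stem cell marker scale beside them where it turned one. Calls with the same sign on both scales were those of Bmi1 and L3mbtl2 in D2 against B6, of Pcgf1, Pcgf6, Cbx7, Bmi1 and Kdm2b in B6-13D2 against B6, and of Cbx7, Kdm2b, L3mbtl2, Ring1 and Bmi1 in D2-13B6 against D2.

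In D2 against B6, 8 of 10 members were called, against 60.0% of all genes, with 2 higher (29.8% of all genes) and 6 lower (30.3%). On the stem cell marker scale 8 were higher and 0 lower, against 12729 of 17148 genes called, 89.3% of them higher. With DESeq2, 5 of 10 were called, 2 higher and 3 lower, against 9610 of 17148 genes called, 56.5% of them higher. The median member log2 fold change was -0.13, against 0.01 over all genes. In B6-13D2 against B6, 6 of 10 were called, against 58.3% of all genes, 4 higher (25.4%) and 2 lower (32.9%), or 3 and 4 on the stem cell marker scale, with a median of 0.06 against -0.04. In D2-13B6 against D2, 9 of 10 were called, against 57.3%, 7 higher (27.6%) and 2 lower (29.7%), or 3 and 4 on the stem cell marker scale, with a median of 0.26 against 0.00. On the stem cell marker scale 10045 of 17148 genes were called in B6-13D2 against B6 (22.9% of them higher) and 10864 in D2-13B6 against D2 (18.6%). With TMM the share of members called in B6-13D2 against B6 stood near the background. There RLE size factors gave 6 higher and 2 lower, against 10275 of 17148 genes called, 52.0% of them higher. DESeq2 called 9 of 10, 7 higher and 2 lower, against 9696 genes called, 51.9% of them higher. Only 1 of 10 members reached an absolute log2 fold change of 0.5 in each of these 3 comparisons, Bmi1, Bmi1 and Kdm2b in turn, against 33.6%, 35.8% and 32.2% of all genes (Pcgf1 in B6-13D2 against B6 lay just under it). These comparisons share libraries: the first and second share B6, and D2 is in both the first and the last.

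**Figure D2:**
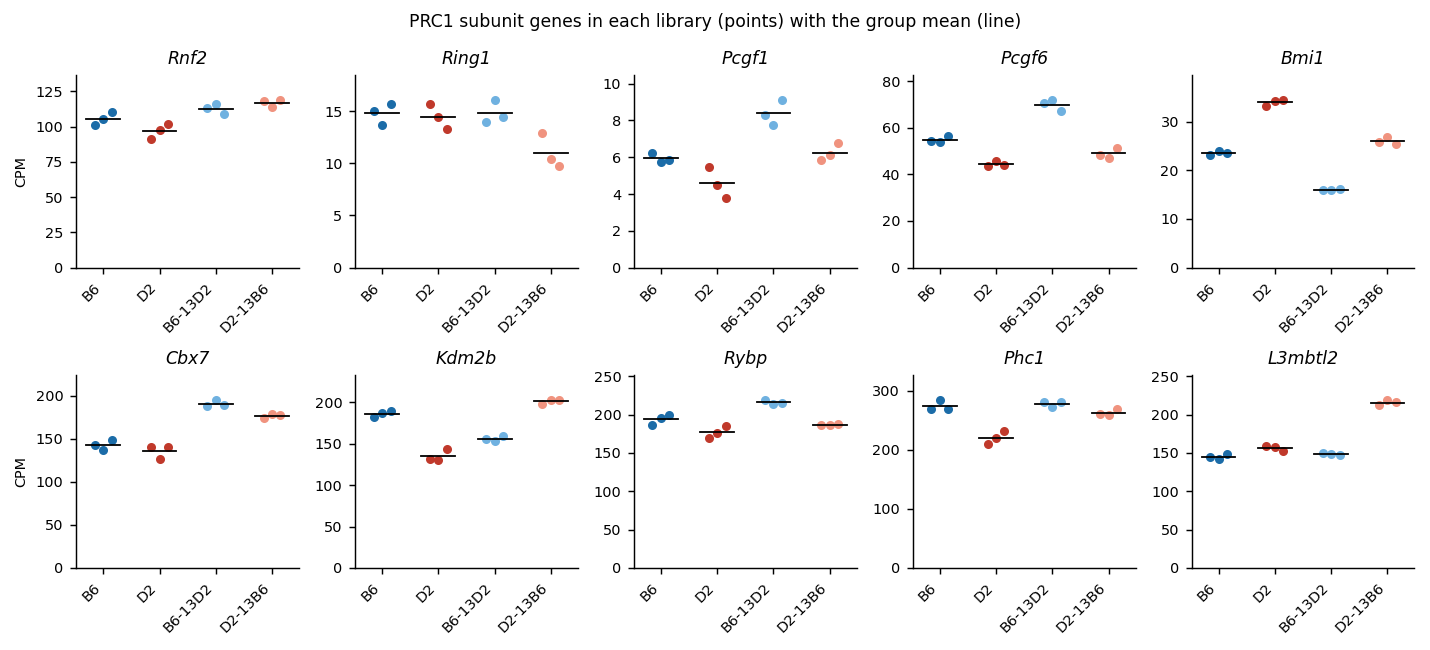
CPM of each of the 10 members in every library (points) with the group mean. Bmi1 ran from 16 CPM in B6-13D2 to 34.0 in D2 on average, L3mbtl2 stood apart in D2-13B6 at 216 CPM, and Cbx7 was above both parental strains in both congenic lines on this scale, though per 1000 CPM of stem cell markers B6-13D2 (42.2) was below D2 (45.8).

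Bmi1 (chr2, 18677018 to 18686629), the canonical PCGF that represses the Cdkn2a locus, had the widest spread of any member. Its CPM was 23.1, 23.9 and 23.6 in B6, 16, 15.9 and 16.2 in B6-13D2, 33.3, 34.2 and 34.5 in D2 and 25.9, 26.8 and 25.4 in D2-13B6. The 4 groups did not overlap, and neighbours in the order B6-13D2, B6, D2-13B6, D2 differed by the edgeR test, though the step from B6 to D2-13B6 (0.15, edgeR adjusted p = 0.0125) was not called without B6 replicate 1 (0.053) or D2-13B6 replicate 2 (0.0626). Bmi1 was higher in D2 than in B6 by 0.53 ± 0.047 (log2 fold change ± SE, edgeR adjusted p = 2.93e-08). It was lower in B6-13D2 than in B6 by a log2 fold change of -0.55 ± 0.051 (edgeR adjusted p = 3.42e-08) and lower in D2-13B6 than in D2 by -0.38 ± 0.045 (edgeR adjusted p = 8.61e-07). Each of these calls held on the stem cell marker scale, at 0.97, -0.72 and -0.64. Bmi1 was lowest and highest in the same groups as the fibroblast markers, whose sum was 1.63-fold higher in D2 than in B6, 3.08-fold lower in B6-13D2 than in B6 and 1.99-fold lower in D2-13B6 than in D2, and their part in the Bmi1 result was not tested.

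Pcgf6 (chr19, 47033617 to 47050906), the PCGF of the form that silences germline genes, was highest where Bmi1 was lowest. Its CPM was 54.3, 53.8 and 56.4 in B6, 70.7, 72.0 and 67.0 in B6-13D2, 43.4, 45.6 and 43.8 in D2 and 48.3, 47.0 and 51.5 in D2-13B6. The 4 groups did not overlap, and their order was that of the stem cell markers, though the step from B6 to D2-13B6 (-0.17, edgeR adjusted p = 0.00407) was not called with DESeq2 (-0.11) or only the libraries compared (-0.10), and turned to 0.02 on the stem cell marker scale. The log2 fold change was -0.31 ± 0.046 in D2 against B6 (edgeR adjusted p = 1.77e-05), which turned to 0.13 on the stem cell marker scale, and 0.35 ± 0.044 in B6-13D2 against B6 (edgeR adjusted p = 2.12e-06), which held there at 0.18. In D2-13B6 against D2 it was 0.14 ± 0.045 (edgeR adjusted p = 0.0131), which turned to -0.12 on that scale and was no longer called without D2-13B6 replicate 3 (edgeR adjusted p = 0.0872). Per 1000 CPM of stem cell markers, Pcgf6 was 13.6 CPM in B6, 15.5 in B6-13D2, 15.0 in D2 and 13.8 in D2-13B6, so its highest to lowest ratio fell from 1.58 to 1.14, while that of Bmi1 rose from 2.12 to 3.23.

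Pcgf1 (chr6, 83077869 to 83080855), the partner of KDM2B, had the lowest level per kilobase of exon over all libraries, 3.82 CPM per kb. Its CPM was 6.24, 5.75 and 5.87 in B6, 8.31, 7.78 and 9.13 in B6-13D2, 5.46, 4.48 and 3.78 in D2 and 5.84, 6.14 and 6.77 in D2-13B6. B6-13D2 lay above all other libraries and D2 below all of B6 and D2-13B6, which overlapped each other (edgeR adjusted p = 0.645). The log2 fold change was 0.50 ± 0.114 in B6-13D2 against B6 (edgeR adjusted p = 0.00118; 0.33 and still called on the stem cell marker scale) and 0.45 ± 0.118 in D2-13B6 against D2 (edgeR adjusted p = 0.00368; 0.19 and no longer called there). In D2 against B6 it was -0.38 ± 0.124 (edgeR adjusted p = 0.0142), which turned to 0.06 on that scale, and the adjusted p was 0.0543 with DESeq2 and 0.0617 with edgeR without D2 replicate 3. Its standard errors were the largest of the 10 members in these 3 comparisons.

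The RING pair split. Rnf2 (chr1, 151458004 to 151500955), the main E3 ligase of stem cells, averaged 105 ± 4.23 CPM in B6, 112 ± 3.51 in B6-13D2, 97.0 ± 5.51 in D2 and 117 ± 2.68 in D2-13B6 (SD, n = 3 each). D2-13B6 lay above D2 in every library, at 0.27 ± 0.043 (edgeR adjusted p = 3.76e-05), which became 0.01 and was no longer called on the stem cell marker scale. In B6-13D2 against B6 the value was 0.09 and not called (edgeR adjusted p = 0.0734), but it was called at 0.16 with DESeq2 and with RLE size factors (adjusted p = 0.00196 and 0.00411), at 0.11 to 0.13 with the other filters or only the libraries compared, and without B6 replicate 3, D2 replicate 1 or 3, or B6-13D2 replicate 3. On the stem cell marker scale it turned to -0.07 and was not called. In D2 against B6 the value was -0.12 ± 0.044 (edgeR adjusted p = 0.0292), which turned to 0.32 on the stem cell marker scale and was not called with RLE size factors (-0.06, edgeR adjusted p = 0.209), DESeq2 (-0.06, adjusted p = 0.246), a mean CPM of at least 1 (-0.07), only the libraries compared (-0.11) or without B6 replicate 2 or 3 or D2 replicate 1 or 2. Ring1 (chr17, 34020792 to 34024680), its less abundant paralogue, had 15.0, 13.7 and 15.7 CPM in B6, 14.0, 16.1 and 14.4 in B6-13D2, 15.7, 14.4 and 13.3 in D2 and 12.9, 10.4 and 9.76 in D2-13B6. All 3 D2-13B6 libraries were below every other library, and the other 3 groups overlapped. Ring1 was lower in D2-13B6 than in D2 by -0.39 ± 0.096 (edgeR adjusted p = 0.00216; -0.65 on the stem cell marker scale). It had values of -0.03 in D2 against B6 and 0.01 in B6-13D2 against B6, neither called (edgeR adjusted p = 0.784 and 0.97), and on the stem cell marker scale these turned to 0.41 (called) and -0.16 (not called).

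Cbx7 (chr15, 79915807 to 79971119), the main CBX of undifferentiated stem cells, was higher in each congenic line than in the strain of its background. Its CPM was 143, 137 and 149 in B6, 188, 195 and 189 in B6-13D2, 140, 127 and 140 in D2 and 174, 179 and 178 in D2-13B6. The congenic libraries all lay above the parental ones on this scale. The log2 fold change was 0.42 ± 0.041 in B6-13D2 against B6 (edgeR adjusted p = 1.04e-07) and 0.39 ± 0.041 in D2-13B6 against D2 (edgeR adjusted p = 2.67e-07), and both calls held on the stem cell marker scale at 0.25 and 0.13. D2 against B6 was not called on the TMM scale (-0.08, edgeR adjusted p = 0.116), but was at -0.11 without B6 replicate 2 and at 0.36 on the stem cell marker scale. Phc1 (chr6, 122317731 to 122340561), the PHC of stem cells, averaged 274 ± 8.29 CPM in B6, 278 ± 4.50 in B6-13D2, 220 ± 10.5 in D2 and 263 ± 4.82 in D2-13B6, so D2 alone was low on this scale. It had a log2 fold change of -0.32 ± 0.037 in D2 against B6 (edgeR adjusted p = 1.15e-06) and 0.25 ± 0.037 in D2-13B6 against D2 (edgeR adjusted p = 1.43e-05), which turned to 0.13 and -0.01 on the stem cell marker scale, and 0.02 in B6-13D2 against B6 (edgeR adjusted p = 0.662), which was called at 0.08 with DESeq2 (adjusted p = 0.0466) and turned to -0.15 and was called lower on the stem cell marker scale (edgeR adjusted p = 0.0289).

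Kdm2b (chr5, 122870665 to 122989823), the histone demethylase family subunit that targets the PCGF1 form, had 183, 187 and 190 CPM in B6, 156, 153 and 160 in B6-13D2, 132, 130 and 144 in D2 and 198, 203 and 203 in D2-13B6. The groups did not overlap, in the order D2, B6-13D2, B6, D2-13B6. The step from D2 to B6-13D2 was 0.21 (edgeR adjusted p = 9.68e-05) but turned to -0.40, called, on the stem cell marker scale, where B6-13D2 was lowest (34.7 CPM per 1000 CPM of markers, against 45.8 in D2). The step from B6 to D2-13B6 (0.11, edgeR adjusted p = 0.0213) was not called without B6 replicate 1 or 2 or D2-13B6 replicate 2 or 3 (edgeR adjusted p from 0.0513 to 0.092). Kdm2b was lower in B6-13D2 than in B6 by -0.25 ± 0.039 (edgeR adjusted p = 1.95e-05; -0.42 on the stem cell marker scale) and higher in D2-13B6 than in D2 by 0.57 ± 0.039 (edgeR adjusted p = 7.20e-10; 0.31 on that scale). Kdm2b was thus higher with the B6 segment on both backgrounds, the 1 of 10 members called in that way against 4.31% of all genes. In D2 against B6 the value was -0.47 ± 0.039 (edgeR adjusted p = 1.54e-08), but -0.02 on the stem cell marker scale.

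L3mbtl2 (chr15, 81663889 to 81688315), a zinc finger and MBT domain protein of the PCGF6 form, had 145, 142 and 148 CPM in B6, 150, 148 and 147 in B6-13D2, 159, 158 and 152 in D2 and 212, 219 and 216 in D2-13B6. D2-13B6 was set apart, at 0.47 ± 0.032 against D2 (edgeR adjusted p = 8.41e-10; 0.21 on the stem cell marker scale) and 0.58 ± 0.032 against B6 (edgeR adjusted p = 6.41e-11). Its value in D2 against B6 was 0.11 ± 0.033 (edgeR adjusted p = 0.00804; 0.55 on the stem cell marker scale), and 0.03 in B6-13D2 against B6 was not called (edgeR adjusted p = 0.427). The latter was called at 0.09 with DESeq2 and with RLE size factors, and turned to -0.14 and was called lower on the stem cell marker scale. Rybp (chr6, 100228565 to 100287485), which joins RING proteins in variant PRC1, averaged 194 ± 6.71 CPM in B6, 216 ± 2.53 in B6-13D2, 177 ± 7.40 in D2 and 187 ± 1.31 in D2-13B6. It was called in D2 against B6 (-0.13 ± 0.037, edgeR adjusted p = 0.00474) and in B6-13D2 against B6 (0.16 ± 0.036, edgeR adjusted p = 0.00127), and these turned to 0.31 and -0.01 on the stem cell marker scale. The D2 against B6 call was lost at -0.08 with DESeq2 (adjusted p = 0.06) and with RLE size factors (edgeR adjusted p = 0.0633). The value was 0.08 for D2-13B6 against D2 and not called (edgeR adjusted p = 0.0694), and it turned to -0.18 and was called lower on the stem cell marker scale (edgeR adjusted p = 0.00339). It was called higher at 0.10 with no filter and at 0.11 without D2 replicate 3.

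Kdm2b, L3mbtl2, Cbx7 and Rnf2 have exons that overlap other genes, and no source used here says if reads were counted by strand. Kdm2b shares 627 bases with Rnf34 on the opposite strand, and L3mbtl2 shares 1023 bases with Chadl, also on the opposite strand, so these values are uncertain to that extent. Rnf34 had 887 to 1486 counts per library, against 3166 to 7336 for Kdm2b, and Chadl 74 to 241. Kdm2b also shares 124 bases with Gm44574 on its own strand and 199 with the antisense A930024E05Rik (9 to 34 counts). Cbx7 (3072 to 6462 counts) shares 100 bases with Apobec3 (2091 to 4903 counts), and Rnf2 shares 158 with Trmt1l (686 to 1232 counts), both on the opposite strand. Expected counts were whole in 0 of 12 libraries for Kdm2b and L3mbtl2, 4 for Rybp, 8 for Bmi1 and 11 for Rnf2. A count that is not whole can hold reads divided among several places, and how many is not known.

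**Figure D3:**
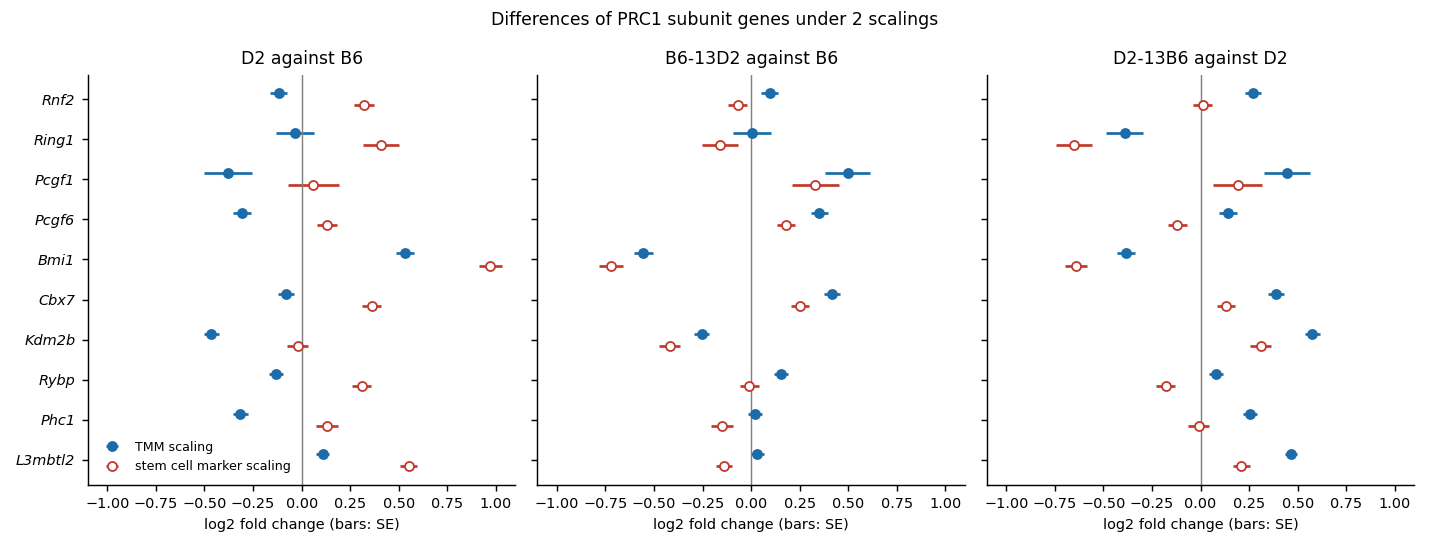
log2 fold change with its SE for the 10 members in the 3 comparisons of D2 against B6, B6-13D2 against B6 and D2-13B6 against D2. Bmi1 is higher in D2 and lower in both congenic lines, and Cbx7 is higher in both; these hold on the stem cell marker scale, while Phc1 and Pcgf6 in D2 against B6 turn there.

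Across the congenic lines, 3 of 10 members were higher in both than in the strain of their background (Pcgf1, Pcgf6 and Cbx7), against 12.4% of all genes. On the stem cell marker scale Pcgf6 turned in D2-13B6 against D2 (-0.12) and Pcgf1 lost its call there, and of these 3 genes Cbx7 was called higher in both lines on either scale. Bmi1 was the 1 of 10 lower in both, against 19.8% of all genes. The contrast of both congenic lines minus both parental strains, which asks whether the segment acts alike on either background, called 10 of 10 members against 64.5% of all genes, 8 higher (31.1%) and 2 lower (33.4%), with a median of 0.34 against 0.00. On the stem cell marker scale it called 5 of 10, 2 higher (Pcgf1 and Cbx7) and 3 lower, against 11312 of 17148 genes, 18.5% of them higher. Ring1 (-0.38, edgeR adjusted p = 0.02) lost its call in this contrast with DESeq2 (-0.32, adjusted p = 0.0594) and without B6 replicate 3, D2 replicate 1, or D2-13B6 replicate 2 or 3 (edgeR adjusted p from 0.051 to 0.0762).

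The remaining pairs compare groups that differ in background or in both background and segment. In B6-13D2 against D2, which carry the same D2 segment, 9 of 10 members were called against 74.6% of all genes, 7 higher (36.7%) and 2 lower (38.0%). On the stem cell marker scale 0 were higher and 8 lower, against 13821 of 17148 genes called, 13.4% of them higher. The median there was -0.36 for members and -0.61 for all genes. The largest values on the TMM scale were -1.08 ± 0.048 for Bmi1, 0.88 ± 0.116 for Pcgf1 and 0.66 ± 0.045 for Pcgf6. Of these, Pcgf1 (0.27, edgeR adjusted p = 0.0503) and Pcgf6 (0.05, edgeR adjusted p = 0.359) were not called on the stem cell marker scale. L3mbtl2 (-0.08) was no longer called with DESeq2, with RLE size factors, with no filter, with only the libraries compared or when any of 10 of the 12 libraries was left out. In D2-13B6 against B6, which carry the same B6 segment, 7 of 10 were called against 59.0%, 5 higher (24.5%) and 2 lower (34.6%), led by L3mbtl2 (0.58), Ring1 (-0.42 ± 0.098) and Cbx7 (0.31 ± 0.041). On the stem cell marker scale 6 were higher and 1 lower, against 9295 of 17148 genes called, 68.6% of them higher. In D2-13B6 against B6-13D2, 7 were higher and 1 lower on the stem cell marker scale, against 12802 of 17148 genes called, 81.4% of them higher. The median on that scale was 0.25 for members and 0.41 for all genes. On the TMM scale 8 of 10 were called in D2-13B6 against B6-13D2, against 70.2%, 3 higher (38.4%) and 5 lower (31.8%), led by Bmi1 (0.70 ± 0.048), L3mbtl2 (0.54 ± 0.032) and Pcgf6 (-0.52 ± 0.043). There Phc1 (-0.08, edgeR adjusted p = 0.055) was called lower with DESeq2, with RLE size factors, with the filter at a mean CPM of 1, with only the libraries compared, and without any 1 of 7 libraries (B6 replicates 1 to 3, D2 replicates 1 and 3, B6-13D2 replicate 2, D2-13B6 replicate 3). Cbx7 (-0.11, edgeR adjusted p = 0.0245) lost its call without B6-13D2 replicate 2 or D2-13B6 replicate 1. On the stem cell marker scale Phc1 and Cbx7 turned to 0.27 and 0.24, both called. Groups did not overlap in CPM for 7 of 10 members in D2 against B6 (62.0% of all genes), 6 in B6-13D2 against B6 (63.2%) and all 10 for D2-13B6 against D2 (62.9%). They did not overlap for 9 in B6-13D2 against D2 (75.5%), 8 in D2-13B6 against B6 (65.2%) and 9 in D2-13B6 against B6-13D2 (74.9%).

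Levels per kilobase of exon compared members with each other. In B6 they ran from 51.7 CPM per kb for Phc1 and 40.9 for Rybp, through 25.5 for Rnf2, 24.4 for L3mbtl2, 22 for Cbx7 and 17.2 for Kdm2b, to 10.9 for Pcgf6, 5.92 for Bmi1, 4.57 for Ring1 and 3.61 for Pcgf1. Within a paralogue family, each gene's share of the family's reads per base of exon shows its weight and needs no choice of library scale. Rnf2 held 84.8 ± 0.809% of the RING pool in B6, 85.6 ± 0.723% in B6-13D2, 84 ± 1.85% in D2 and 89.3 ± 1.35% in D2-13B6 (SD, n = 3), with the last above the others in every library. Cbx7 held 60.5 ± 1.16% of the CBX pool in B6, 65.7 ± 0.496% in B6-13D2, 54.6 ± 2.37% in D2 and 54.8 ± 0.560% in D2-13B6. Cbx7 thus rose in CPM in D2-13B6 against D2 while its share of the family's RNA in those groups overlapped. Cbx2 was 22.8% of the pool in D2-13B6 and 16% to 17.2% in the others.

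In the PCGF pool Pcgf2, the second canonical PCGF, was the most abundant and ran from 35.1 ± 1.32% in D2 to 50.1 ± 0.385% in D2-13B6. Bmi1 ran from 7.0 ± 0.103% in B6-13D2 to 16.5 ± 0.316% in D2, and Pcgf6 from 15.2 ± 0.514% in D2-13B6 to 24.2 ± 1.24% in B6-13D2. Pcgf1 held 5.36 ± 0.985% in D2 and 8.85 ± 0.627% in B6-13D2. So the B6-13D2 libraries had the smallest Bmi1 share and the largest Pcgf1 and Pcgf6 shares, and D2 the largest Bmi1 share. Rybp ran from 73.3 ± 1.03% of the pair with Yaf2 in D2 to 89.3 ± 0.692% in B6-13D2, with Yaf2 at 24.7 to 26.0 CPM in D2 and 9.8 to 11 in B6-13D2. Phc1 ran from 75.6 ± 1.38% of the PHC pool in D2 to 88.8 ± 0.614% in B6-13D2. Phc2 ranked the groups exactly as the fibroblast markers did, and Yaf2 shared their lowest and highest groups; the part of those markers in these shares was not tested.

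**Figure D4:**
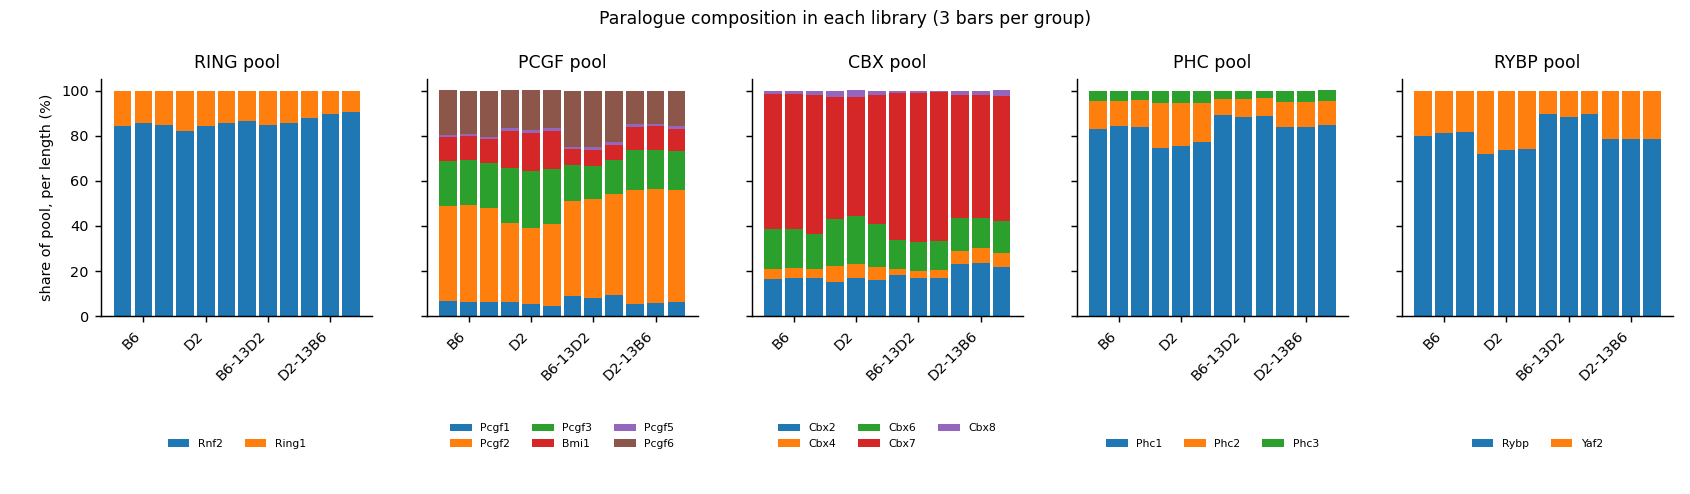
Share of each paralogue family's summed reads per base of exon (percent, 1 bar per library, 3 per group, in the order B6, D2, B6-13D2, D2-13B6) for the RING, PCGF, CBX, PHC and RYBP families. Bmi1 and Phc2 take their smallest mean shares in B6-13D2 (7.0% and 7.68%) and their largest in D2 (16.5% and 18.9%).

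The other PRC1 genes moved in either direction. Of 33 tested, 13 were higher and 13 lower in D2 against B6, 10 higher and 14 lower in B6-13D2 against B6, and 13 higher and 11 lower in D2-13B6 against D2, with medians of -0.04, -0.08 and 0.07. On the stem cell marker scale these were 22 and 2, 2 and 20, and 4 and 17. By a rule of size among called genes of this list and of the H2A deubiquitinase genes together, Wdr5 (-0.62), Usp21 (-0.65), Cbx8 (0.64) and Asxl3 (0.85) marked D2 against B6. Usp21 and Asxl3 belong to the deubiquitinase list and not to PRC1. Scml2 (-1.29), Yaf2 (-0.82), Cbx2 (0.35) and Pcgf5 (0.47) marked B6-13D2 against B6. Phc2 (-0.69), Tfdp1 (-0.58), Bcorl1 (1.02) and Scml2 (2.14) marked D2-13B6 against D2. All of these kept their sign and call on the stem cell marker scale. Scml2 averaged 2.64 CPM in B6, 1.08 in B6-13D2, 2.05 in D2 and 9.18 in D2-13B6. Pcgf2 (0.83) and Cbx2 (0.90), also higher in D2-13B6 than in D2 on both scales, lie on chromosome 11, where the median of 1386 tested genes in that comparison was 0.39, and the part of that chromosome-wide shift was not tested.

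The lists below stand beside all genes, of which 29.8% were called higher and 30.3% lower in D2 against B6. These shares were 25.4% and 32.9% in B6-13D2 against B6, and 27.6% and 29.7% in D2-13B6 against D2. On the stem cell marker scale 89.3%, 22.9% and 18.6% of all called genes were higher in turn. PRC2, which writes the H3 mark that CBX proteins bind, had 0 of 12 genes higher and 8 lower in D2 against B6 on the TMM scale, and 8 higher and 1 lower on the stem cell marker scale. In B6-13D2 against B6, 5 were higher and 4 lower, which became 2 and 7, and in D2-13B6 against D2, 8 were higher and 0 lower, which became 4 and 6. Of those 8, Ezh1 (0.85), Suz12 (0.70) and Epop (0.52) lie on chromosome 11, where the median was 0.39 in that comparison, and the part of that shift was not tested. H2A deubiquitinase genes, which remove the PRC1 mark, had 4 of 11 higher and 6 lower in D2 against B6, 2 and 6 in B6-13D2 against B6, then 4 and 5 for D2-13B6 against D2, with 9 and 1, 0 and 8, and 1 and 7 on the stem cell marker scale. Germline genes silenced by the PCGF6 form had 3 of 16 higher and 12 lower in D2 against B6 (median -0.76), 2 and 6 in B6-13D2 against B6 (-0.23), then 5 and 3 for D2-13B6 against D2 (0.02). On the stem cell marker scale these became 3 and 7, 2 and 9, and 3 and 4.

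Of the textbook Polycomb targets, mainly developmental regulators such as Hox genes, those that passed the filter on low counts were mostly lower in B6-13D2 than in B6. Of 32 listed genes 26 passed, so the counts describe those 26 and not all targets. A target can pass through the groups where it is high: Pax6 averaged 0.998 CPM in D2 and 0.0566 in B6-13D2, and Nkx2-2 0.387 and 0.0734. The filter can thus favour targets that are low in B6-13D2, and its part in these counts was not tested. In B6-13D2 against B6, 20 were lower and 2 higher with a median of -1.0, against 32.9% and 25.4% of all genes. In D2-13B6 against D2, 12 were lower and 2 higher with a median of -0.49, against 29.7% and 27.6%. In D2 against B6, 10 were higher and 3 lower with a median of 0.44, against 29.8% and 30.3%. On the stem cell marker scale the counts were 22 lower and 2 higher, 17 lower and 1 higher, and 20 higher and 2 lower. Of all genes called there, 22.9%, 18.6% and 89.3% were higher in turn. The fibroblast marker sum was likewise lower in B6-13D2 than in B6 and in D2-13B6 than in D2, and higher in D2 than in B6. The primitive endoderm marker sum was 0.454-fold, 0.842-fold and 1.3-fold in those comparisons, but of its 7 tested genes 0 were higher and 4 lower, 2 higher (Gata4 and Sox17) and 2 lower (Dab2 and Cubn), and 4 higher and 1 lower. That list shares Gata4, Gata6, Sox17 and Foxa2 with the targets. The primed epiblast marker sum, most of it Dnmt3b, was 1.51-fold, 1.09-fold and 1.85-fold, and of its 6 genes 3 were higher and 2 lower, 2 higher and 1 lower, and 4 higher and 0 lower. The part of these marker lists in the counts was not tested.

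Hoxd13 had 18.9 to 20.4 CPM in B6, 7.13 to 7.65 in B6-13D2, 25.5 to 26.9 in D2 and 14.3 to 16.3 in D2-13B6. Its log2 fold change was -1.42 ± 0.070 in B6-13D2 against B6 (edgeR adjusted p = 7.93e-12). Hoxa5 had the lowest value by the same rule in both congenic comparisons, -1.73 ± 0.275 and -1.31 ± 0.235 (edgeR adjusted p = 3.09e-05 and 1.17e-04). Cdkn2a, the classic target of Bmi1, was -0.88 ± 0.075 in D2-13B6 against D2 (edgeR adjusted p = 1.65e-08) and 0.36 ± 0.075 in D2 against B6 (edgeR adjusted p = 4.69e-04). It was -0.53 in B6-13D2 against B6 and -0.89 in B6-13D2 against D2. Bmi1 had the same sign in these 4 comparisons (-0.38, 0.53, -0.55 and -1.08) but the opposite sign in D2-13B6 against B6, at 0.15 against -0.52 for Cdkn2a. Between the congenic lines Cdkn2a averaged 20 and 20.2 CPM, where Bmi1 averaged 16 in B6-13D2 and 26.0 in D2-13B6. Among targets the naming rule took, those that went the other way were Sox1 (1.22) and Eomes (0.41) in B6-13D2 against B6, and Gata4 (0.64) in D2-13B6 against D2, whose call was lost on the stem cell marker scale (0.38). Eomes was lower in D2-13B6 than in D2 (-0.37). Sox17, the other target higher in D2-13B6 than in D2, was below the rule's minimum level (0.524 CPM in D2 and 1.54 in D2-13B6) and is named after its values were seen, at 1.53 ± 0.27 (edgeR adjusted p = 1.04e-04; 1.27 and called on the stem cell marker scale). In D2 against B6 the rule named Gata4 (-1.05), Eomes (-0.99), Cdx2 (1.55) and Hoxd8 (1.03), all with the same sign and call on that scale.

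**Figure D5:**
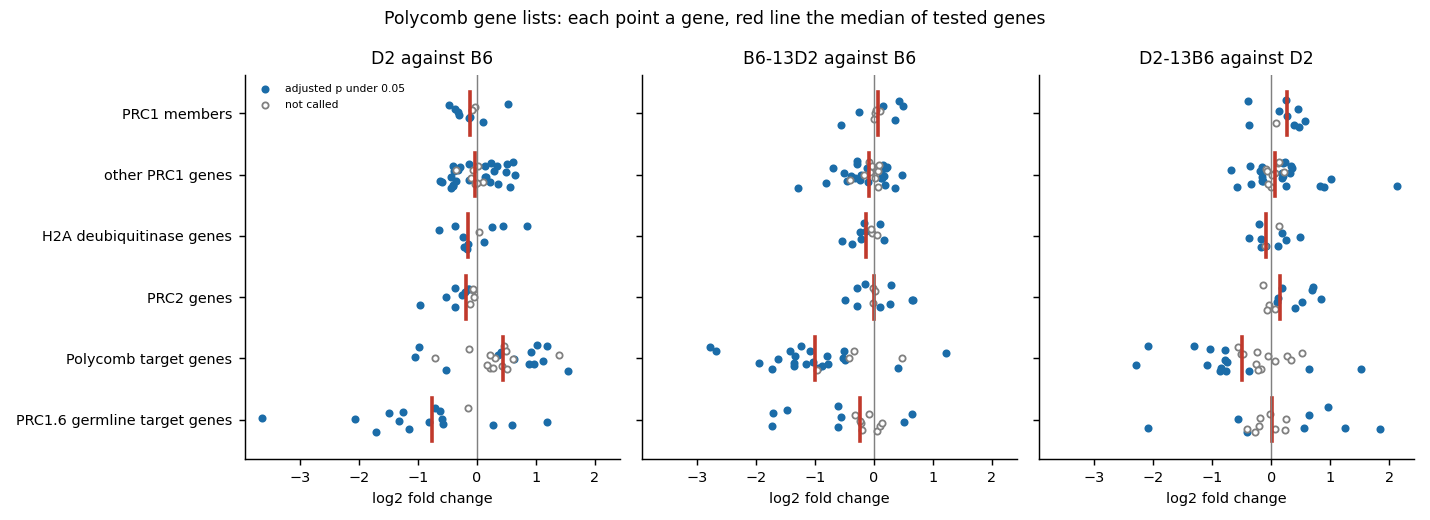
log2 fold change on the TMM scale of each tested gene (points) in the members, other PRC1 genes, H2A deubiquitinase genes, PRC2 genes, Polycomb targets and germline targets, in D2 against B6, B6-13D2 against B6 and D2-13B6 against D2. Polycomb targets have medians of 0.44, -1.0 and -0.49 (0.88, -1.16 and -0.75 on the stem cell marker scale), against -0.13, 0.06 and 0.26 for the members (0.32, -0.10 and 0.00 there).

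Genes with the most similar pattern were found by the root mean square difference of centred log2 CPM over the 12 libraries, among 8333 genes with whole counts and a mean of 2 or more on the log2 CPM scale. Rybp and Kars differed by 0.027, as did Rybp and Mmachc. Phc1 was closest to Sbno1 (0.030) and Ptcd3 (0.034), Rnf2 to Psme3 (0.034) and Rnf114 (0.039), and Bmi1 to Ak1 (0.037) and Abcg2 (0.043). Kdm2b was closest to Dgke (0.039) and Pik3r4 (0.050), Pcgf6 to Pbk (0.043) and Tkt (0.049), and L3mbtl2 to Mfap3 (0.050) and Ogdh (0.051). Cbx7 was closest to Ngfr (0.054) and Arhgap19 (0.055), and Ring1 to Fam168b (0.093) and Prrg2 (0.097). Among member pairs Rybp and Phc1 were the closest, at 0.083, and Pcgf1 and Bmi1 the farthest, at 0.71. All 12 libraries share the 4 groups, so these likenesses describe group means as much as libraries.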

How the data were processed

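RNA-seq of mouse embryonic stem cells was read from 1 table of expected counts that the authors deposited, that is, estimated read counts per Ensembl gene ID and library which need not be whole. Per the file's own name they come from EMASE, which divides reads that map to several places. The submitters' processing notes name Bowtie 1.0.0, edgeR 3.34.1 and mm10, without their roles. All 12 columns matched sample titles. Of 43346 IDs, 42462 were found in GENCODE M21; the others held 0.361% of reads.

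Rounded counts went into edgeR 4.0.16 under R 4.3.3 (filterByExpr with a minimum count of 10, TMM, 4 group means, all 12 libraries, quasi-likelihood test, Benjamini-Hochberg adjustment within each comparison at 0.05). This tested 17148 genes over 7 comparisons and was checked on simulated data. SE is the absolute log2 fold change over the square root of F. CPM use TMM library sizes, CPM per kb the summed exon length. Libraries held 22184196 to 36411799 expected counts. Alternatives were DESeq2 1.42.0, RLE size factors, other filters, a replicate block, only the libraries compared, leaving out each library, and, added after seeing the data, library sizes from the summed stem cell markers.

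Other genes were named by rule: the paralogues of members, the 2 highest and 2 lowest called log2 fold changes of the lists of other PRC1 and deubiquitinase genes together and of Polycomb targets (mean log2 CPM of at least 0) in each of the first 3 comparisons, and the 2 genes with whole counts most like each member in pattern. Those of Pcgf1 are not reported here. Hoxd13 and Cdkn2a values beyond those were added after seeing them, as were Sox17, the markers named beside the target counts and the chromosome 11 genes Pcgf2, Cbx2, Ezh1, Suz12 and Epop. The members and lists were chosen with earlier results of these data known.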

Additional observations from a re-analysis of the deposited data

Results flagged for a closer look

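For each of the 10 members, the difference between the D2 and the B6 segment was not the same on the B6 and the D2 background by edgeR's test of that contrast, which equals both congenic lines minus both parental strains (adjusted p under 0.05), though Ring1's call was lost with DESeq2 (adjusted p = 0.0594) and without any 1 of 4 libraries. This was the case for 64.5% of all tested genes, and the contrast cannot be told apart from anything the congenic libraries share. The log2 values were 0.37 for Rnf2, -0.38 for Ring1, 0.94 for Pcgf1, 0.49 for Pcgf6, -0.94 for Bmi1, 0.80 for Cbx7, 0.32 for Kdm2b, 0.24 for Rybp, 0.27 for Phc1 and 0.50 for L3mbtl2. With library sizes from stem cell markers, Pcgf1 (0.52), Cbx7 (0.38), Ring1 (-0.81) and Bmi1 (-1.36) were called in the same direction. Rybp was called in the other direction there (-0.19, edgeR adjusted p = 0.0209). Rnf2 (-0.06), Kdm2b (-0.11) and Phc1 (-0.16) turned and were not called, and Pcgf6 (0.07) and L3mbtl2 (0.07) lost their calls.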

How the results depend on the processing

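Of 1320 member values under the alternatives, 1198 kept direction and side of the threshold, 51 lost a call, 27 gained 1 and 44 changed sign, 31 of these with library sizes from stem cell markers (added after seeing the data). With that scale the changed signs were, in D2 against B6, Rnf2 0.32, Ring1 0.41, Pcgf1 0.06, Pcgf6 0.13, Cbx7 0.36, Rybp 0.31 and Phc1 0.13. In B6-13D2 against B6 they were Rnf2 -0.07, Ring1 -0.16, Rybp -0.01, Phc1 -0.15 and L3mbtl2 -0.14. In D2-13B6 against D2 they were Pcgf6 -0.12, Rybp -0.18 and Phc1 -0.01. In B6-13D2 against D2 they were Rnf2 -0.40, Ring1 -0.57, Cbx7 -0.12, Kdm2b -0.40, Rybp -0.32 and Phc1 -0.27, in D2-13B6 against B6 Pcgf6 0.02, Rybp 0.13 and Phc1 0.12, and in D2-13B6 against B6-13D2 Cbx7 0.24, Rybp 0.14 and Phc1 0.27. For both congenic lines minus both parental strains they were Rnf2 -0.06, Kdm2b -0.11, Rybp -0.19 and Phc1 -0.16. Members called higher and lower there were 8 and 0 in D2 against B6, 3 and 4 in each congenic line against its background strain, 0 and 8 in B6-13D2 against D2, 6 and 1 in D2-13B6 against B6, 7 and 1 in D2-13B6 against B6-13D2, and 2 and 3 (5 in all) in the congenic minus parental contrast; the cause was not tested.

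The other changed signs were small. Ring1 in D2 against B6 was 0.02 with DESeq2, RLE size factors and a mean CPM of at least 1, and 0.01 without B6 replicate 3 or D2 replicate 3. Ring1 in B6-13D2 against B6 was -0.05 without B6 replicate 2 and -0.06 without B6-13D2 replicate 2, and in B6-13D2 against D2 -0.01 without D2 replicate 3 and -0.02 without B6-13D2 replicate 2. Rybp in D2-13B6 against B6 was 0.00 with DESeq2 and RLE size factors and 0.01 with only the libraries compared, where Phc1 was 0.00. With DESeq2, 5 members were called in D2 against B6 (3 lower), 7 higher in B6-13D2 against B6, and 1 lower in B6-13D2 against D2, in D2-13B6 against B6 and in the congenic minus parental contrast. DESeq2 called 9610, 9696, 12314, 9185 and 10668 of 17148 genes in these comparisons in turn. RLE size factors, no filter and only the libraries compared also gave 1 lower in B6-13D2 against D2, and the last gave 1 lower in D2-13B6 against B6; the cause was not tested. Ring1's call in the congenic minus parental contrast was lost with DESeq2.

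Leaving out each of the 12 libraries in turn gave 1 to 2 members lower in B6-13D2 against D2 (only without B6 replicate 3 or D2 replicate 3 did it stay at 2, L3mbtl2 being the call lost), 3 to 5 higher in D2-13B6 against B6 (3 without B6 replicate 1 or D2-13B6 replicate 2, Bmi1 and Kdm2b being lost, and Kdm2b also without B6 replicate 2 or D2-13B6 replicate 3) and 1 to 2 lower in the congenic minus parental contrast (1 without B6 replicate 3, D2 replicate 1, or D2-13B6 replicate 2 or 3, Ring1 being lost). Ring1 ranged from -0.09 to 0.01 in D2 against B6, from -0.06 to 0.05 in B6-13D2 against B6 and from -0.02 to 0.11 in B6-13D2 against D2.

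The replicate numbers did not pair the libraries: same-numbered libraries had a mean correlation of -0.011 (-0.125 to 0.068, 18 pairs), and 4 of 12 libraries correlated best with their own number. The replicate block called 10167, 9911, 9664, 12706, 10026, 11912 and 10966 genes in the 7 comparisons and left all 70 member values with the same direction and call. Depth limits Pcgf1 and Ring1 most, at 6.30 and 13.8 CPM over all libraries. Per the protocol each strain is a single line, though B6 titles name another for replicate 3.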
